A study of Mus musculus with 9 samples.

Results

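The expression of 10 transcription factors of the endothelium was followed in MLECs, the meningeal lymphatic endothelial cells, of mice with and without a tumor in the head. The genes were taken by symbol from a list drawn up with earlier results of these data known: the ETS factors Erg, Fli1, Ets1, Ets2 and Elk3, the SoxF factors Sox7 and Sox17, the partner proteins Tal1 and Lmo2, and Epas1, which encodes HIF-2alpha. All 10 were found among the 24321 genes of the deposited table, and all 10 were among the 9955 genes with an FPKM (fragments per kilobase of transcript, scaled to the mapped fragments of the library) of at least 1 in at least 3 libraries, which were tested. The RNA-seq data comprised 9 libraries, 3 from mice given PBS (control), 3 from mice bearing GL261, a mouse glioma line, and 3 from mice bearing B16, a mouse melanoma line. The mice were C57BL/6, males by the methods, 7 to 8 weeks old at injection and 10 weeks old by the labels, and no allele or transgene was named. By the labels, tumor MLECs were taken about 3 weeks after GL261 and about 2 weeks after B16 injection, with no time for the controls. The results of the paper give 2 weeks for all groups, and its methods give 2 to 3 weeks. If the label times hold, the tumor line and the time since injection cannot be told apart. Each library was made from 10 cells with CD31 but without CD45, sorted from the dorsal meninges of 6 pooled mice. The lymphatic marker of the gate was LYVE-1 by the labels and methods, while another passage of the paper names PDPN. The labels give the cisterna magna as the site of injection and the methods the subdural space.

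ETS factors share a DNA-binding domain that recognises a GGAA core, and Erg and Fli1 are best known for holding blood endothelial cells in their state. SoxF factors act beside them in vessel growth, and the third SoxF factor, Sox18, starts the lymphatic fate by switching on Prox1. Tal1 is a basic helix-loop-helix protein that binds E-box sites (CANNTG) with an E protein, and Lmo2 is a LIM-only protein that binds no DNA itself but bridges Tal1, Ldb1 and a GATA factor. HIF-2alpha is the hypoxia-inducible factor that is abundant in endothelium, held down in normal oxygen by the Egln hydroxylases and Vhl.

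Lmo2 and Tal1 had lower FPKM in every tumor library than in every control library, and Epas1 had higher FPKM in every tumor library than in every control library. Sox7 was higher in each tumor library but GL261 replicate 1 than in every control library, the means of Fli1 and Ets1 were higher in the tumor groups with 1 low control library, and Elk3 stayed near 100 FPKM in all groups. With limma on log2(FPKM + 1) and Benjamini-Hochberg adjustment over all 9955 genes, none of the 10 passed an adjusted p of 0.05 in the 6 tumor-associated libraries against control, where 3.93% of all genes tested passed (2.9% higher and 1.02% lower). Lmo2 was the single call among the 10, in GL261 against control, where 3.49% of all genes passed. At an unadjusted p under 0.05, 6 of the 10 differed between tumor-associated and control libraries, beside 19.0% of all genes.

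Some properties of the libraries bear on every value. The number of genes with an FPKM above 0 was 7303 to 8688 among controls, 9456 to 10852 with GL261 and 8736 to 9950 with B16, so that each tumor library had more detected genes than each control library. The median difference of all tested genes was 0.20 on the log2 scale between tumor-associated and control libraries, and 289 genes were called higher and 102 lower. With values centred on ubiquitous genes, the median was -0.55 with 142 called higher and 458 lower, and with centring on pan-endothelial genes 169 were called higher and 179 lower. Relative to ubiquitous genes, Tal1 (-3.55, adjusted p = 0.0270, limma) and Lmo2 (-3.96, adjusted p = 0.0195) both passed, and Ets2 and Sox17 turned sign. In the same setting the differences of Sox7 (1.02), Ets1 (0.71), Fli1 (0.49) and Epas1 (0.44) were smaller than those given below, and none passed. The ubiquitous genes themselves had a median difference of 0.48 before centring, with 0 called lower. Marker genes also moved with the groups. The blood endothelial markers (Flt1, Cd34, Emcn, Esam, Plvap, Cldn5, Ly6c1 and Vwf) summed to 2332 to 3100 FPKM in control and 6060 to 9549 in tumor libraries, with 7 of 8 called higher. The lymphatic identity genes summed to 3017 to 3270 FPKM in control and 845 to 2593 in tumor libraries, with 5 of 9 tested called lower and 0 called higher. Of the genes for the possible gate markers, Lyve1 ranged from 628 to 1895 FPKM over all 9 libraries. Pdpn was at 147 to 372 FPKM in control and 32.0 to 247 in tumor libraries (difference -1.48, SE 0.64, adjusted p = 0.235, limma). Prox1, the master factor of lymphatic identity, was at 20.9 to 42.2 FPKM in control and 1.87 to 16.5 in tumor libraries, with an adjusted p of 0.0509 (limma). Flt1, a receptor of blood endothelium, was at 0.855 FPKM or below in control and at 49.0 to 156 in tumor libraries. Control replicate 1 stood apart from the other control libraries by its smooth muscle genes. It had 505 FPKM of Acta2 and 641 FPKM of Tagln, both at 0 in the other control libraries. Control replicate 3 alone among the controls had the leukocyte genes Tyrobp (71.2 FPKM) and Cd52 (56.8 FPKM). In the same library Cd68 was at 0, and Lyz2 (60.6 FPKM) was below its value in control replicate 2 (145 FPKM). Control replicate 3 also had the highest Lmo2 and Tal1 of the 9 libraries. The part of these shifts in the values of the 10 factors was not tested. In libraries of this kind, fewer cells of a type and less RNA per cell cannot be told apart.

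**Figure D1:**
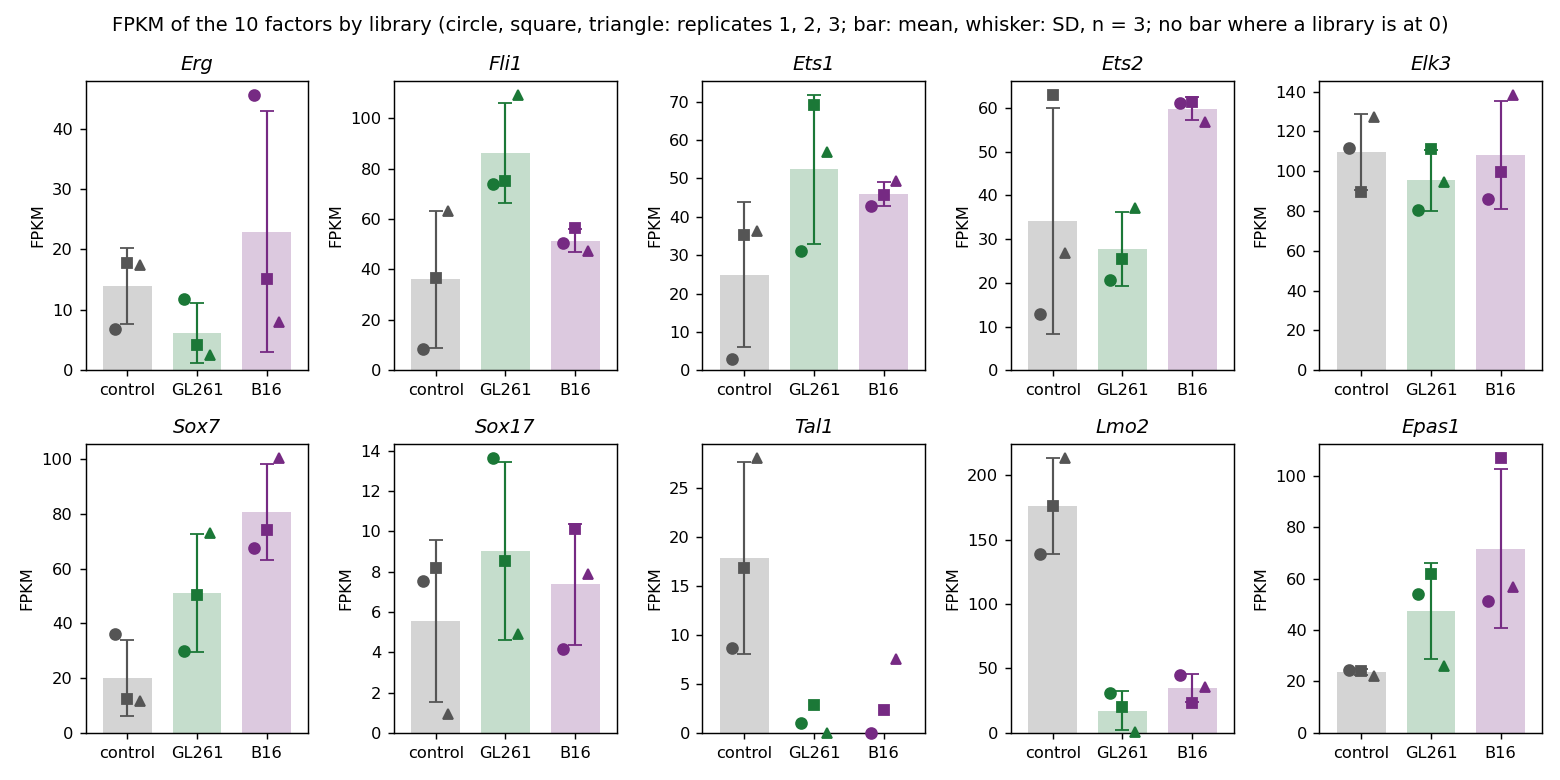
FPKM of each of the 10 factors in the 9 libraries; the y axis is linear FPKM from 0, symbols are replicates, bars are group means with the SD (n = 3), and groups with a library at 0 have no bar. Lmo2 and Tal1 lie lower in all 6 tumor libraries than in the controls, and Epas1 lies higher in all 6.

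Promoter sequences are shown for Tal1, one of the factors that lay lower in every tumor library, and for Elk3, whose level stayed closest between the groups. Promoters (300 bases around a start, from RefSeq, GRCm38.p6) were at hand for 4 of the 10 genes, and there was no entry for Fli1, Ets1, Sox7, Sox17, Lmo2 and Epas1. Capitals mark the ETS core GGAA on either strand (TTCC on the printed strand), and sequences run 5′ to 3′ along the gene. The Tal1 starts lie at chr4:115056176-115056475 and chr4:115057561-115057860 (plus strand), and the Elk3 start at chr10:93311110-93311409 (minus strand).
Tal1 first promoter: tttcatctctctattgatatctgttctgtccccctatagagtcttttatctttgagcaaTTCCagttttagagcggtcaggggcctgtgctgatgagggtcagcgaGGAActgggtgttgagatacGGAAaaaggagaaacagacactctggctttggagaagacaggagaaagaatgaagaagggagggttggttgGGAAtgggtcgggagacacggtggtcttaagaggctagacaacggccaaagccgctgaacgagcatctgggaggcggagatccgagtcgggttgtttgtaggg
Tal1 second promoter: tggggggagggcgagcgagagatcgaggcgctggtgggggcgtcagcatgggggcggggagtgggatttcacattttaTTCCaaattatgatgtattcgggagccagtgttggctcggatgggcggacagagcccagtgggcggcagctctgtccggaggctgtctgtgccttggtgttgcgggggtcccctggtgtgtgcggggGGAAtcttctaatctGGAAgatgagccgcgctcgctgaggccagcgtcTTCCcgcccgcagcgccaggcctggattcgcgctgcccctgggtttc
Elk3 promoter: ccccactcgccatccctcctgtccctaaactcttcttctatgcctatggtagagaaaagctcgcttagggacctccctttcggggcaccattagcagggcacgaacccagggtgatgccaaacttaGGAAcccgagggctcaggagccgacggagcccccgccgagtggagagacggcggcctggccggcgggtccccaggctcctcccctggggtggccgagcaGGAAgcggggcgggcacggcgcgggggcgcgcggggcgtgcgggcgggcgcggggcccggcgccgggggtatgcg
Each Tal1 promoter held 4 GGAA cores and the Elk3 promoter held 2, beside a median of 3 over all 32851 mouse promoters of this length, of which 96.0% held at least 1. The longer ETS motif CAGGAAG, which contains the core, was found once in the Elk3 promoter and not in the Tal1 promoters, and 13.3% of all promoters held it. The E-box CANNTG was found once in the first Tal1 promoter and not in the second or in that of Elk3, beside 72.3% of all promoters.

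Lmo2 was the most abundant of the 10 factors in control MLECs. It was measured at 139, 176 and 214 FPKM in the control, at 30.7, 19.9 and 0.717 in the GL261 and at 45.2, 23.4 and 35.3 in the B16 libraries. The lowest control value was thus far above the highest tumor value, and GL261 replicate 3 was nearly without Lmo2. The difference of log2(FPKM + 1) was -3.20 (SE 0.85) for tumor-associated against control with an adjusted p of 0.0562 (limma), which missed the threshold narrowly. Against the same 3 control libraries, Lmo2 fell in GL261 by 4.07 (SE 0.91, adjusted p = 0.0324, limma), while B16 gave -2.34 (SE 0.91, adjusted p = 0.248). The call in GL261 was lost when any 1 control library, GL261 replicate 2 or B16 replicate 3 was left out (adjusted p = 0.0523 to 0.0848, limma). GL261 and B16 did not differ in Lmo2 by the test (difference -1.72, 95% interval -3.71 to 0.26, adjusted p = 0.973, limma). In mm9, Lmo2 lies on chromosome 2 at 103798143 to 103822035 and overlaps 4931422A03Rik on the opposite strand. Strand-specific counting is not stated in the sources used here, so reads of the overlapping genes cannot be told apart.

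Tal1 was read at 8.66, 16.9 and 28.1 FPKM in the control, at 1.01, 2.85 and 0 in the GL261 and at 0, 2.39 and 7.53 in the B16 libraries. Every tumor library lay below the lowest control library, with the nearest pair, B16 replicate 3 and control replicate 1, close to each other. Whether a listed 0 is a failed estimate in libraries of 10 cells was not tested. The general transcription factor gene Tbp was listed at 0 in control replicates 1 and 3, where Tal1 was above 0. In GL261 replicate 3 and B16 replicate 1, where Tal1 was listed at 0, Tbp was at 9.06 and 16.7 FPKM. On the log2(FPKM + 1) scale Tal1 differed by -2.80 (SE 0.85) in tumor-associated against control libraries, which did not pass (adjusted p = 0.0908, limma). The separate differences were -3.11 (SE 1.00) in GL261 and -2.48 (SE 1.00) in B16. Together Lmo2 and Tal1 gave 148 to 242 FPKM in each control library and 0.717 to 45.2 in each tumor library. Over the 9 libraries their log2(FPKM + 1) values had a Pearson r of 0.778, which was 0.766 without control replicate 1 and 0.612 without control replicates 2 and 3, the libraries farthest from the median of Tal1. After the mean of each group was taken off, r was 0.365, so the pooled value in large part carries the difference between the groups.

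Partners of Tal1 and Lmo2 had no call in the direction of Lmo2. Of 12 partner genes on the list, 10 could be tested, 1 was called higher and 0 lower in tumor-associated against control libraries, and their median difference was 0.35. The called gene was Gata2, a GATA factor of endothelium and blood progenitors, at 0.201, 7.44 and 0 FPKM in control and 9.24 to 56.8 in tumor libraries (difference 3.31, SE 0.83, adjusted p = 0.0431, limma). Without control replicate 1 the count of calls on this list was 0. The non-overlap of Gata2 thus ran opposite to that of Lmo2 and Tal1. Tcf4, an E protein, was among the partners of highest level, with 38.3 to 63.1 FPKM in control and 35.6 to 53.6 in tumor libraries (difference -0.13, adjusted p = 0.892, limma). Hhex, a homeobox factor, was likewise expressed in all 9 libraries, at 9.96 to 68.8 FPKM in control and 23.1 to 68.2 in tumor libraries.

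Sox7 was the SoxF factor with the larger difference. Its FPKM was 36.0, 12.4 and 11.7 in the control, 29.9, 50.6 and 72.9 in the GL261 and 67.4, 74.1 and 101 in the B16 libraries. All 3 B16 libraries lay above all control libraries, while GL261 replicate 1 lay below control replicate 1. Tumor-associated libraries differed from control by 1.77 (SE 0.51, adjusted p = 0.0741, limma), GL261 by 1.41 (SE 0.57) and B16 by 2.13 (SE 0.57, adjusted p = 0.0825, limma). Without control replicate 1, the library with high smooth muscle genes and the highest Sox7 of the controls, the tumor-associated difference was 2.27 with an adjusted p of 0.0364 (limma). Without control replicate 2 it was 1.54 (adjusted p = 0.165, limma) and without control replicate 3 it was 1.50 (adjusted p = 0.174). Lmo2 was above Sox7 in every control library and below it in each tumor library but GL261 replicate 1. The difference Sox7 minus Lmo2 on the log2 scale was -4.08 to -1.92 in control and -0.04 to 5.43 in tumor libraries.

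Sox17, an arterial factor, was low throughout. It was at 7.52, 8.18 and 0.95 FPKM in the control, at 13.7, 8.50 and 4.89 in the GL261 and at 4.15, 10.1 and 7.87 in the B16 libraries. The groups overlapped, with control replicate 3 the lowest library of all, and the difference of 0.69 (SE 0.73) had an adjusted p of 0.654 (limma). Sox18, the SoxF factor outside the 10, was more abundant than either, at 179 to 430 FPKM in control and 208 to 737 in tumor libraries (difference 0.73, SE 0.38, adjusted p = 0.329, limma). Of 9 other Sox genes 4 could be tested and 0 were called, with a median difference of 0.64. Sox4, the next in level, was at 8.79 to 14.4 FPKM in control and 4.08 to 19.2 in tumor libraries.

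Fli1 and Ets1 had the same low library. Fli1 was at 8.45, 36.6 and 63.1 FPKM in the control, at 74.1, 75.2 and 109 in the GL261 and at 50.6, 56.4 and 47.2 in the B16 libraries. All GL261 libraries were above all control and all B16 libraries, while the B16 libraries fell within the control range. The tumor-associated difference of 1.24 (SE 0.56) did not pass (adjusted p = 0.252, limma), nor did that of GL261 against control (1.60, SE 0.64, adjusted p = 0.223) or GL261 against B16 (0.71, 95% interval -0.68 to 2.11, adjusted p = 1). Without control replicate 1 the tumor-associated difference in Fli1 was 0.45.

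Ets1, a factor of vessel sprouting, was at 3.04, 35.3 and 36.4 FPKM in the control, at 31.0, 69.2 and 56.8 in the GL261 and at 42.9, 45.7 and 49.2 in the B16 libraries. The B16 libraries all lay above the controls, and GL261 replicate 1 fell below 2 of the control values. The difference was 1.47 (SE 0.66, adjusted p = 0.252, limma), and 0.40 without control replicate 1. The Pearson r of Fli1 with Ets1 was 0.911 over 9 libraries, but 0.411 without control replicate 1 and 0.223 without that library and GL261 replicate 3, so the likeness rested on these libraries. The genes are neighbours on mm9 chromosome 9 (Fli1 at 32229793 to 32348974, minus strand, and Ets1 at 32443806 to 32565405, plus strand), with 94831 bases and no annotated gene between them.

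Erg varied widely within groups. It was at 6.75, 17.8 and 17.5 FPKM in the control, at 11.9, 4.20 and 2.50 in the GL261 and at 45.6, 15.1 and 8.03 in the B16 libraries. B16 replicate 1 was the highest and GL261 replicate 3 the lowest library, and all groups overlapped. The difference was -0.36 for tumor-associated against control (95% interval -2.11 to 1.38, adjusted p = 0.855, limma), with -1.17 (SE 0.85) in GL261 and 0.44 (SE 0.85) in B16. Fli1 exceeded Erg in each library, with a gap on the log2 scale of 0.29 to 1.79 among the controls, of 2.55 to 4.98 with GL261 and of 0.15 to 2.42 with B16.

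Ets2, the close relative of Ets1, was at 12.9, 63.1 and 26.8 FPKM in the control, at 20.7, 25.4 and 37.2 in the GL261 and at 61.2, 61.5 and 56.8 in the B16 libraries. The B16 libraries were tightly grouped and all above the GL261 libraries, while the controls spanned both. Neither the tumor-associated difference (0.50, SE 0.57, adjusted p = 0.680, limma) nor that of GL261 against B16 (-1.12, SE 0.59, adjusted p = 0.979) passed. Ets2 and Erg are neighbours on mm9 chromosome 16, 115481 bases apart with no annotated gene between them.

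Elk3, a ternary complex factor that represses its targets until it is phosphorylated, was the steadiest of the 10. It was at 112, 89.5 and 127 FPKM in the control, at 80.6, 111 and 94.7 in the GL261 and at 86.2, 99.7 and 138 in the B16 libraries. The groups overlapped fully, and the difference of -0.11 had a 95% interval of -0.79 to 0.57 (adjusted p = 0.890, limma). Elk3 overlaps Cdk17 on the opposite strand of mm9 chromosome 10, with the same limit as for Lmo2.

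The rest of the ETS family was low in most libraries. Of 21 other ETS genes, 6 were listed at 0 in every library, 11 could be tested, and 0 were called in tumor-associated against control libraries, with a median difference of -0.06. Elf1 had the highest mean level, at 7.56, 6.90 and 0 FPKM in control and 10.7 to 22.6 in tumor libraries (difference 1.93, SE 0.76, adjusted p = 0.188, limma). Etv5 followed, at 3.62 to 26.4 FPKM in control and 0.0619 to 9.02 in tumor libraries. Spi1, which did not pass the filter for testing, was at 31.7 FPKM in control replicate 3 and 13.3 in GL261 replicate 3. It was at most 0.123 FPKM in the other libraries. Control replicate 3 is the library with Tyrobp and Cd52 among the controls and with the highest Lmo2 and Tal1.

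Epas1 had the tightest control values of the 10, at 24.4, 24.2 and 22.2 FPKM, and was at 54.1, 61.9 and 26.2 in the GL261 and at 51.2, 107 and 56.6 in the B16 libraries. Every tumor library lay above every control library, GL261 replicate 3 by little. The difference of 1.19 (SE 0.46) did not pass (adjusted p = 0.179, limma), nor did those in GL261 (0.89, SE 0.51) and B16 (1.48, SE 0.51, adjusted p = 0.192). In the HIF pathway, 1 of 7 tested genes was called higher and 0 lower, with a median difference of 0.47. That gene was Hif1a, the other main oxygen-sensitive subunit, at 3.20, 15.6 and 20.6 FPKM in control and 29.3 to 96.3 in tumor libraries (difference 2.36, SE 0.59, adjusted p = 0.0434, limma). Without control replicate 1 no gene on this list was called. Arnt, the common partner subunit, was at 2.16 to 18.1 FPKM in control and 1.89 to 11.2 in tumor libraries, and the hydroxylase gene Egln2 was at 0.441 to 48.1 in control and 13.2 to 49.8 in tumor libraries.

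**Figure D2:**
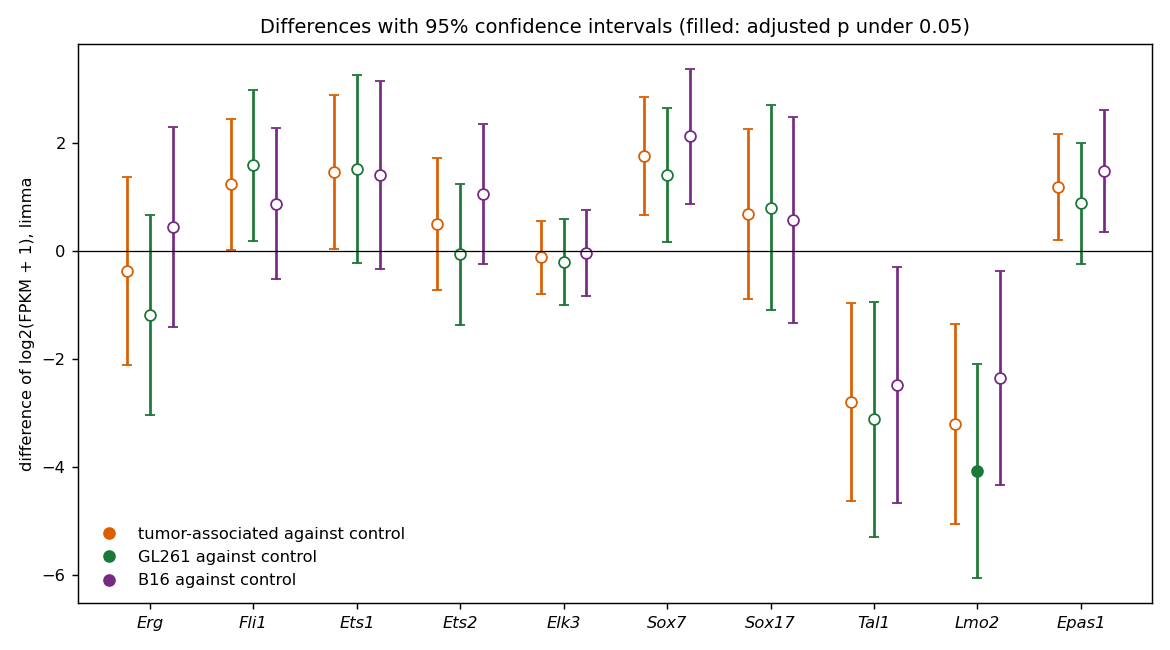
Differences of log2(FPKM + 1) for each of the 10 factors (points) with 95% confidence intervals from limma, for tumor-associated (n = 6), GL261 and B16 (n = 3 each) against the same 3 control libraries. Filled points passed an adjusted p of 0.05, which was the case for Lmo2 in GL261 alone among these, and the intervals of Erg, Ets2, Elk3 and Sox17 include 0 in all 3 comparisons.

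Read side by side, 3 of the 10 factors (30.0%) did not overlap between control and tumor-associated libraries, beside 10.5% of all tested genes. The counts were 4 of 10 for GL261 (22.5% of all genes) and 5 of 10 for B16 (17.2%), which share the control libraries. Between GL261 and B16, 2 of the 10, Fli1 and Ets2, did not overlap in opposite directions (13.8% of all genes). None of the 10 was called between the tumor lines by limma, where B2m, higher in GL261, was the only gene called (0.01% of all genes) and 548 genes (5.5%) had an unadjusted p under 0.05, none of them among the 10.

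The summed level of the 10 factors differed little, at 359 to 548 FPKM in control and 347 to 508 in tumor libraries, but its make-up did not stay the same. The controls held 38.2% ± 1.26 (SD, n = 3) of the sum as Lmo2, and the tumor-associated libraries held 5.88% ± 3.51 (SD, n = 6). The share of Fli1 was 7.17% ± 4.60 for the controls, 21.9% ± 4.75 for GL261 and 10.6% ± 1.14 for B16 (SD over 3 libraries). Sox7 took the seventh place by mean FPKM in control, the fourth in GL261 and the second in B16. By mean FPKM, Lmo2 and Elk3 led in control and their ranges were apart from each other and from that of Fli1, the next in order, below which each neighbouring pair overlapped. In GL261 the order began with Elk3 and Fli1, whose ranges overlapped, and in B16 with Elk3, Sox7, Epas1 and Ets2, which overlapped in turn. Tal1 was last in both tumor groups, and Sox17 was last in control.

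**Figure D3:**
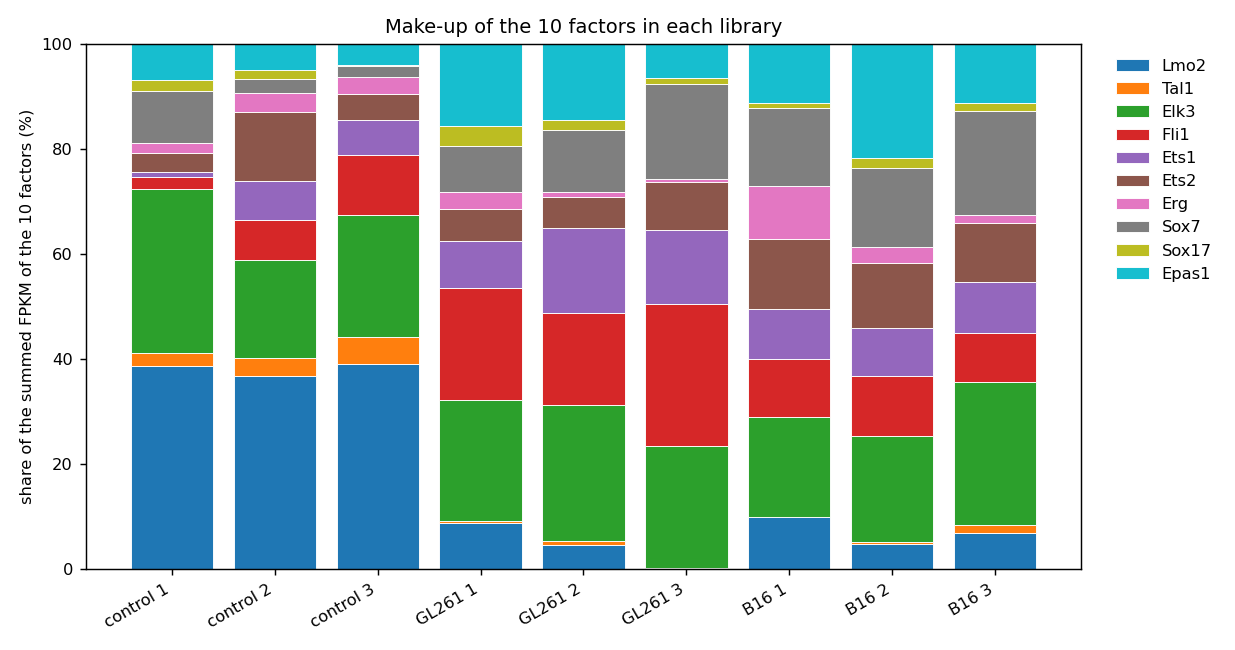
Share (%) of each factor in the summed FPKM of the 10 factors, 1 stacked bar per library. Lmo2 takes 36.7 to 39.0% of each control bar and 0.177 to 9.94% of each tumor bar, while Elk3 takes 18.6 to 31.2% and 19.0 to 27.3%.

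**Figure D4:**
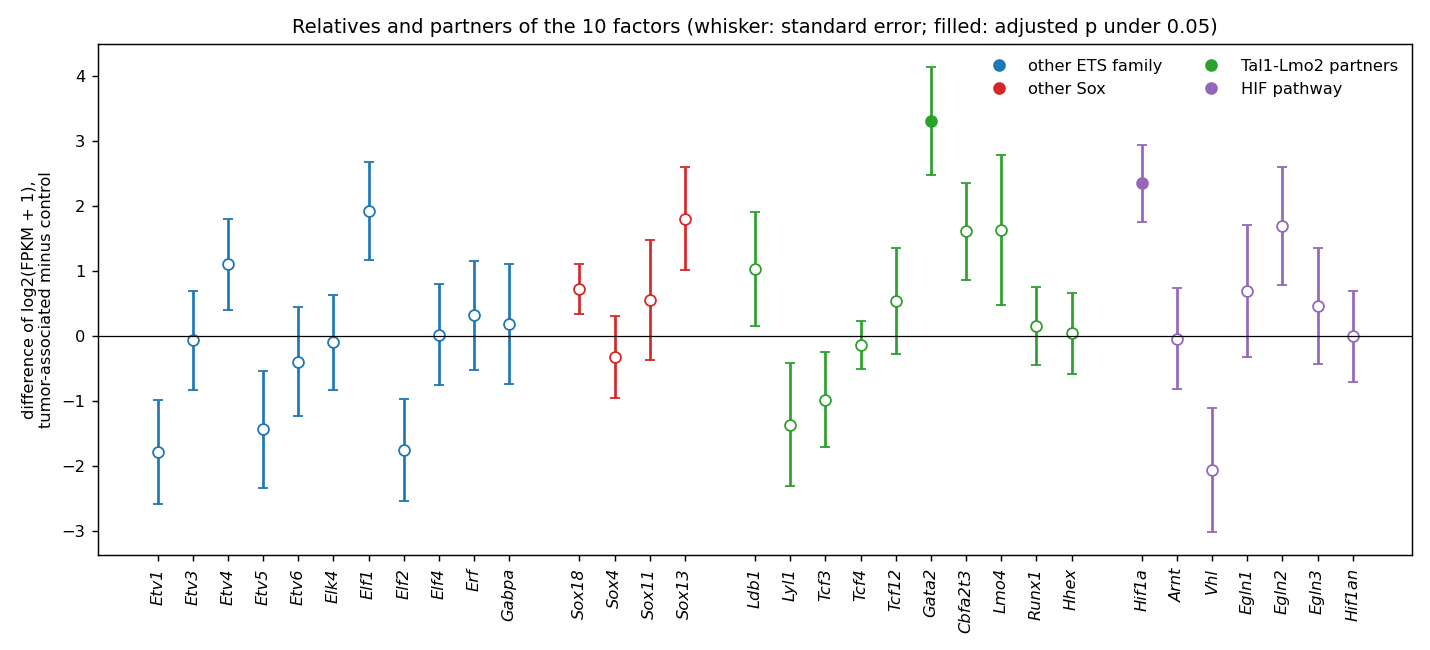
Differences of log2(FPKM + 1), tumor-associated minus control, with standard errors (limma), for the tested relatives and partners of the 10 factors by list. Gata2 and Hif1a are the only filled points, that is, with an adjusted p under 0.05.

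Endothelial genes that ETS factors are known to control were looked at as a list. Of these 25 genes, all tested, 11 were called higher and 0 lower in tumor-associated against control libraries, with a median difference of 1.29, and without control replicate 1 the count of calls was 5. The list contains 7 of the 8 blood endothelial markers above, and it was compiled with earlier results of these data known, so that its direction is no independent evidence. Cd34, a sialomucin of vessels, was at 0.370 to 14.3 FPKM in control and 153 to 592 in tumor libraries (difference 6.38, SE 0.64, adjusted p = 0.000167, limma). Flt1 differed by 6.18 (SE 0.50), Esam, an adhesion molecule of tight junctions, by 6.03 (SE 0.62), and Aplnr, the apelin receptor, by 4.60 (SE 1.15), Aplnr being listed at 0 in all control libraries. The genes of highest level on the list that did not pass in tumor-associated libraries were Egfl7, a secreted vessel protein (difference -0.04, SE 0.21), and Cldn5, the tight junction claudin (-0.63, SE 0.26, adjusted p = 0.211, limma). Cldn5 fell in GL261 against control (-1.01, SE 0.21, adjusted p = 0.0215, limma). Neither Erg nor Fli1 was called in any comparison beside these values.

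Other marker lists are given for the make-up of the libraries beside these values. Of the 5 pan-endothelial genes 1 was called higher, Eng, and they summed to 1786 to 2307 FPKM in control and 2004 to 2986 in tumor libraries. The pan-leukocyte gene Ptprc was at 0 in all 9 libraries. The leukocyte list summed to 244 to 579 FPKM in control and 32.8 to 508 in tumor libraries. Of its 4 tested genes 0 were called. Its gene Fcer1g was at 201 to 390 FPKM in control and 17.85 to 272 in tumor libraries (difference -2.28, SE 0.69, adjusted p = 0.0909, limma). Erythroid and platelet genes were at 0 in all controls and summed to 3.26 to 188 FPKM with a tumor, largely Pf4, with 0 of 2 called. Fibroblast genes summed to 16.2 to 49.0 FPKM in control and at most 3.85 in tumor libraries. Most of the control sum was Dcn (15.7 to 44.9 FPKM), which was called lower. Mural genes summed to 169 to 1270 FPKM in control and 13.3 to 121 in tumor libraries, with 0 of 2 called. In control replicates 2 and 3 the mural sum was nearly all Kcnj8 (194.9 and 168.5 FPKM), while Acta2 and Tagln were at 0. Kcnj8 was at 6.56 to 115.7 FPKM in tumor libraries. Neural and glial genes summed to at most 9.08 and melanocyte genes to at most 4.07 in any library, with 0 called. Among the ubiquitous genes, Tbp, Gapdh and Actb were called higher and 0 were called lower. The part of these genes in the values of the 10 factors was not tested.

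The genes most like each factor over the 9 libraries, by Pearson r of log2(FPKM + 1), were Tcp11l2 (0.988) and Hexim1 (0.973) for Lmo2, and Cbx6 (0.981) and Mrgpra6 (0.962) for Tal1. Tcp11l2 was at 47.5 to 52.2 FPKM in control and 4.16 to 23.2 in tumor libraries, lowest in GL261 replicate 3 as was Lmo2. For Sox7 they were Slc35g2 (0.971) and Ap2s1 (0.958), and for Epas1 Chst11 (0.976) and Porcn (0.974). For Fli1 they were Ldah (0.981) and Mterf3 (0.971), and for Ets1 Cdc34 (0.981) and Ddx50 (0.979). For Ets2 they were Med20 (0.964) and Fzr1 (0.948), for Erg Plec (0.905) and Add3 (0.902), for Sox17 Ppp1r12c (0.948) and Rnf11 (0.947), and for Elk3 Tbc1d32 (0.889) and Mmp11 (0.868). These were the highest of 9955 genes over libraries that share their depth and group differences, and no other member was among them.

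**Figure D5:**
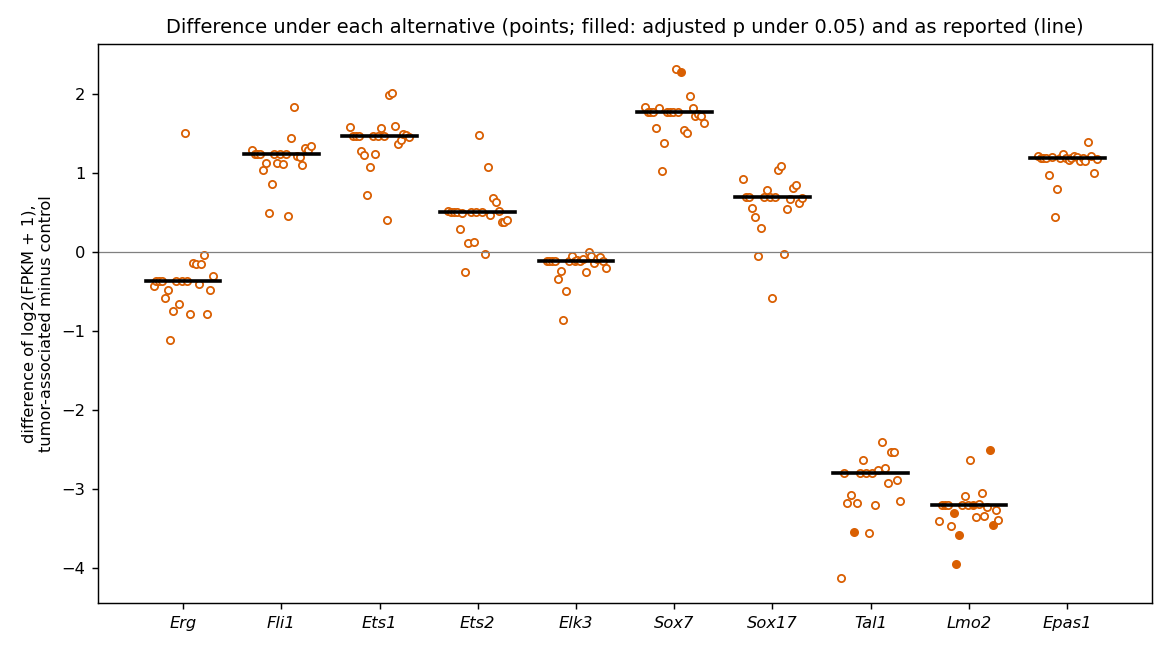
Difference of log2(FPKM + 1), tumor-associated minus control, for each factor as reported (line) and under each other setting (points), such as another normalization or a library left out. Lmo2 and Tal1 stay below 0 and Fli1, Ets1, Sox7 and Epas1 above 0 at every point, and Erg, Ets2, Elk3 and Sox17 cross 0.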

How the data were processed

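MLECs were sorted and sequenced by the authors as pools of 10 cells, 3 libraries per group. Per the methods, reads were trimmed and filtered for quality, aligned to mm9 with TopHat2 2.0.12 and summarised per gene with Cufflinks 2.2.1. The authors deposited the result as FPKM, 1 value per gene symbol and library, with no further normalization between libraries. The annotation given to Cufflinks is not given in the sources used here. The table holds no counts, so no count model was fitted and no counting interval is given. The number of detected genes is given per group, and the aligned reads reported by the study were used only as a covariate in an alternative.

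From the deposited FPKM, log2(FPKM + 1) was tested with limma 3.58.1 in R 4.3.3 (lmFit, eBayes with a trend) wherever 3 or more libraries reached an FPKM of 1. P-values were adjusted by the Benjamini-Hochberg method and called under 0.05. A difference on this scale understates the change of low genes. Following the study, GL261 and B16 were joined as tumor-associated in a fit of 2 groups, and single tumor lines were compared in a fit of 3 groups. Both fits used all 9 libraries. The script was tested on simulated data. Libraries are separate pools by their labels, and the p-values rest on the spread between them. That spread joins the sampling of 10 cells with differences between pools, and the spread between single mice was not measured. The alternatives were pseudocount, filters, scaling, trend, weights, aligned reads as a covariate, a replicate block and leaving out each library. Named genes were the 10 factors, up to 4 called and 2 other genes of each list, and the 2 genes most like each factor. Prox1, Acta2, Ptprc, Tyrobp, Cd52, Cd68 and Spi1 were named outside this rule, after their values were seen. The 10 factors and all lists were chosen with earlier results of these data known. Positions came from GENCODE M1 (mm9) and promoters from RefSeq.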

Additional observations from a re-analysis of the deposited data

Results flagged for a closer look

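Lmo2 in the tumor-associated libraries was set apart by 1 sample far from the others. GL261 replicate 3, at 0.717 FPKM, was separated from the next lowest library (19.9 FPKM) by 0.759 of the range of the 6 tumor libraries on the log2(FPKM + 1) scale, above the critical value of 0.625 for 6 samples. The other 9 factors were not set apart in this way, and chance alone flags about 1 in 20 groups. Without GL261 replicate 3 the difference in Lmo2 between tumor-associated and control libraries was -2.51 with an adjusted p of 0.0057 (limma).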

How the results depend on the processing

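Over the alternatives, the differences of Lmo2, Tal1, Fli1, Ets1, Sox7 and Epas1 between tumor-associated and control libraries kept their direction. For Lmo2 they ranged from -3.96 to -2.51 (adjusted p = 0.0057 to 0.567, limma), and 7 of 22 alternatives passed the threshold. For GL261 against control the Lmo2 difference ranged from -6.24 to -2.77 (adjusted p = 0.0121 to 0.494), and 11 of 22 alternatives did not pass. In tumor-associated against control libraries, the number of the 10 factors called, 0 as reported, was 1 with a mean FPKM of at least 10, with quantile normalization, with centring on the pan-endothelial genes and with 3 groups, and 2 with centring on the ubiquitous genes (Lmo2 and Tal1). Leaving out 1 library gave 0 to 1: Sox7 without control replicate 1, and Lmo2 without GL261 replicate 3 or B16 replicate 1. For GL261, 1 as reported, the count was 0 with a pseudocount of 0.1, with any FPKM above 0, without a trend, with arrayWeights, with aligned reads as a covariate and with only the groups compared, 2 with centring on the ubiquitous genes, and 0 to 1 with 1 library left out. For B16, 0 as reported, it was 0 to 1 with 1 library left out (1 without control replicate 1 or without GL261 replicate 3), and for GL261 against B16 it was 0 throughout. The causes were not tested. With the replicate number as a block the counts were 0 for tumor-associated and 1 for GL261 against control; correlations of the deviations of libraries with the same number were -0.033 to 0.044, beside -0.030 to 0.052 for different numbers, so the numbers do not pair the libraries.

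Signs turned for factors with small differences. Centring on the ubiquitous genes gave -0.25 for Ets2 and -0.058 for Sox17, and aligned reads as a covariate gave 1.51 for Erg and -0.58 for Sox17. Every control library had fewer aligned reads than every tumor library, so depth and group cannot be told apart. With 1 library left out, Ets2 ranged from -0.033 to 1.07, Elk3 from -0.25 to 0.0013 and Sox17 from -0.034 to 1.08. An alternative added after seeing the data, without control replicate 1, gave 5 calls (11 with all libraries) among the genes under ETS control, 4 (5 with all) among the lymphatic identity genes, and 0 (1 with all) for the Tal1 and Lmo2 partners and for the HIF pathway. With aligned reads as a covariate, 9 of all genes were called in tumor-associated against control libraries, beside 391 as reported, and 254 with any FPKM above 0, 212 with FPKM above 0 in all libraries, 231 with arrayWeights and 600 with centring on the ubiquitous genes. With a rescaled sum 209 were called higher and 120 lower, and with quantile normalization 230 and 157. With 1 library left out, 245 to 444 genes were called.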
